A study of Bos taurus with 29 samples.

Results

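The nuclear genes of the mitochondrial respiratory chain and ATP synthase were examined in single cattle oocytes. The rule that set the members uses names only and takes symbols that begin NDUFA, NDUFB, NDUFC, NDUFS or NDUFV and a digit, SDHA to SDHD, CYC1, and those that begin UQCR, ATP5, or COX4I, COX5, COX6, COX7 or COX8. The rule found 83 of the 13502 names in the table. Of these, 36 belonged to complex I, 4 to complex II, 9 to complex III, 15 to complex IV and 18 to complex V. The remaining member, COX7ALP1, is listed as a pseudogene in RefSeq. NDUFA4 and NDUFA4L2 carry complex I names and were placed with complex IV, where NDUFA4 is now counted as a subunit. A filter of at least 1 CPM in at least 6 oocytes was passed by 82 members. NDUFA4L2 did not pass, and its highest value was 8.25 CPM.

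The respiratory chain passes electrons from NADH (complex I) and succinate (complex II) through ubiquinone, complex III and cytochrome c to complex IV, which reduces oxygen. Complexes I, III and IV pump protons across the inner mitochondrial membrane, and complex V, the ATP synthase, uses that gradient to make ATP. Most subunits are encoded in the nucleus and imported, and a small set is encoded by the mitochondrial genome itself. A fully grown oocyte holds a large store of mitochondria and messenger RNA, and resumes meiosis and matures to metaphase II while its nucleus makes little new RNA.

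The groups of wild-type oocytes compared here all came from donor cattle given follicle stimulating hormone (FSH). Germinal vesicle (GV) oocytes, still arrested before the first meiotic division, were freed of cumulus cells at collection and had no culture. IVM oocytes reached metaphase II in conventional in vitro maturation, 22 h in medium with epidermal growth factor and FSH. CNP_IVM oocytes first spent 6 h in medium without the growth factor but with 200 nM of CNP (C-type natriuretic peptide, made by the follicle, where it keeps meiosis arrested), and then 22 h in maturation medium. A polar body marked metaphase II. Columns were present for 7 GV, 8 IVM and 7 CNP_IVM oocytes, and 7 other labelled oocytes were not analysed here. CNP_IVM oocytes were cultured for 28 h in all and no group had 6 h of culture without CNP, so the peptide and the longer culture cannot be told apart.

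A library is 1 oocyte, and neither donor animals nor cultures are named in the labels. Each group therefore counts as 1 sample, no test was possible between groups, and all differences describe these oocytes. Values after ± are SDs between oocytes, with n = 7, 8 and 7 for GV, IVM and CNP_IVM. Levels are counts scaled to the reads of the library (CPM, counts per 1000000 reads), and so shares of a library primed on poly(A) tails. A difference in the amount of a transcript cannot be told apart from one in its tail or in the rest of the library. CPM is not divided by transcript length, so levels are compared between groups for a gene and not between genes. Differences are log2 ratios of group means with 1 CPM added to each, and folds are on that scale, which understates the change of low genes.

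Libraries held 20159662 to 39340040 reads. The oocyte markers GDF9, BMP15, ZP2, ZP3, ZP4, DPPA3, NLRP5, OOSP2, ZAR1 and BTG4 summed to 22638 to 26946, 26084 to 49986 and 42490 to 63433 CPM in the GV, IVM and CNP_IVM groups. Of 22 cumulus and granulosa cell markers 18 had a row, and they summed to 644 to 1036, 373 to 662 and 258 to 342 CPM in the same order. STAR, a cholesterol transporter of steroid-making cells, made up 657, 316 and 93.9 CPM of these sums on average, while the FSH receptor FSHR averaged 0.275, 0.0864 and 0.0714 CPM. Of 9 blood and immune markers 5 had a row and summed to 173 to 362, 8.42 to 46.8 and 3.53 to 25.7 CPM. VWF, of the vessel wall, averaged 225, 21.1 and 11.2 CPM, and CD68, of macrophages, was at 0 in every CNP_IVM oocyte. The blood and immune sums averaged 255, 25.3 and 12.7 CPM, so VWF made up most of them. Of these 5 genes only 2 passed the filter, and in each matured group 2 (40%) were at least 2-fold lower than GV and 3 under 2-fold. Both marker sums were lower on average in the matured groups, and their part in the results was not tested. The cumulus and granulosa sums averaged 802, 502 and 300 CPM, so STAR made up most of them in GV and IVM. Of these 18 genes 33.3% were at least 2-fold lower than GV in each matured group, and 16.7% (IVM) and 11.1% (CNP_IVM) higher. Only 13 of the 18 passed the filter. Their shares thus include genes too low to be called easily, and cannot be set directly against the shares over all genes. Of the 10 oocyte markers 30% and 50% were lower and 40% and 30% higher. Over all genes past the filter 33.0% and 42.0% were lower and 15.9% and 15.3% higher. For GV replicate 9 the title says GV while the treatment field says in vitro maturation, and the title decided its group. It held 9381 genes at 1 CPM or more, against 11311 to 11798 in the other GV oocytes.

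The summed level of the 83 genes was lower in every matured oocyte than in every GV oocyte. Its lowest, median and highest values were 19181, 21709.9 and 24819.6 CPM in GV, 4749, 6979 and 7777 CPM in IVM and 6972, 8107 and 9140.3 CPM in CNP_IVM. The means were 21922 ± 1875, 6744 ± 996 and 8006 ± 775 CPM. The GV mean was 3.25 times the IVM mean and 2.74 times the CNP_IVM mean. Without GV replicate 9, which had the highest sum, the GV mean was 21439 ± 1504 CPM. The CNP_IVM mean was 1.19 times the IVM mean, and these 2 groups overlapped.

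**Figure D1:**
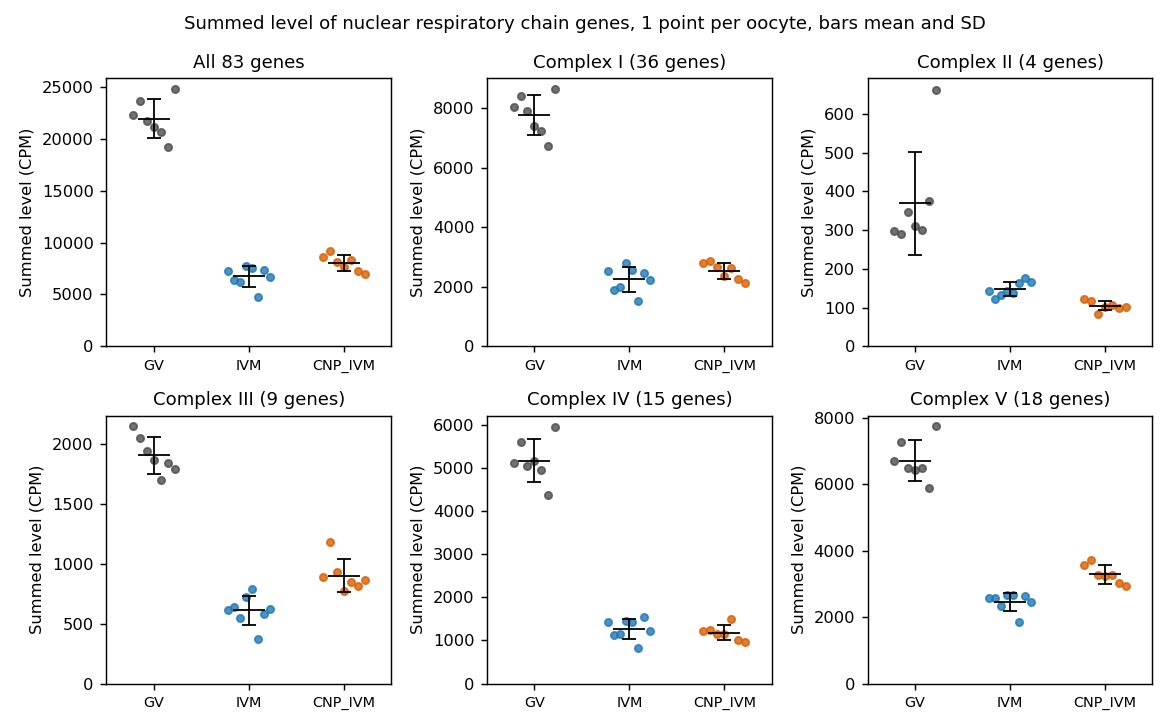
Summed level in CPM (y axis) of all 83 nuclear respiratory genes and of each complex in GV, IVM and CNP_IVM oocytes. Each point is 1 oocyte, and the horizontal and vertical bars give the mean and SD. For all 83 genes the matured oocytes lie between 4749 and 9140 CPM and the GV oocytes between 19181 and 24820 CPM, and in complex V every CNP_IVM oocyte lies above every IVM oocyte.

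The difference was unequal among the complexes. In IVM against GV the ratio of mean sums was 0.2898 for complex I, 0.3999 for complex II, 0.321 for complex III, 0.246 for complex IV and 0.367 for complex V. In CNP_IVM against GV the ratios were 0.326, 0.284, 0.473, 0.228 and 0.4901. Complex V supplied 29.9 to 31.3% of the reads of the 83 genes in GV, 34.1 to 40.5% in IVM and 39.2 to 42.3% in CNP_IVM. Complex IV supplied 22.8 to 24.3%, 17.6 to 20.8% and 13.7 to 17.8%. For both complexes the GV range overlapped neither matured group, while the matured groups overlapped each other.

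Gene by gene, the first comparison, of conventional maturation with the GV stage, put most members far below their GV level. Of the 82 members past the filter, 60 were at least 2-fold lower in IVM than in GV oocytes, 1 was at least 2-fold higher and 21 were under 2-fold. Of the 11852 genes that passed, 33.0% were lower by that rule, 15.9% higher and 48.9% either. The median log2 difference of the members was -2.18, against -0.28 over all genes, so the members stood 1.90 below the middle of the table. At least 8-fold lower were 29 members, against 5.50% of all genes. In 57 members every IVM oocyte lay below every GV oocyte, which held for 19.9% of all genes, and in 0 did every IVM oocyte lie above, against 11.5%. The pseudogene COX7ALP1 is counted among the 60 and the 57. It passed the filter through GV oocytes alone, at 1.32 to 2.35 CPM, and matured oocytes held at most 0.385 CPM. Its calls were thus near the floor and favoured by the filter. Of all genes past 2-fold 32.4% were higher by library totals and 52.6% by quantile normalization, while 57 to 60 members were lower under every scaling tried. The 21 members under 2-fold were NDUFS1, NDUFA6, NDUFA10, NDUFB1, NDUFB6, NDUFC1 and NDUFV3 of complex I, SDHA and SDHD of complex II, and UQCRB, UQCRC1, UQCRC2 and UQCRH of complex III. From complex IV came COX6B2, COX7A2L and COX7B, and from complex V ATP5F1A, ATP5F1B, ATP5MC3, ATP5MG and ATP5PF.

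CNP_IVM oocytes were set against the same GV oocytes, so the 2 comparisons share their GV values. Of 82 members 63 were at least 2-fold lower, 5 at least 2-fold higher and 14 under 2-fold. Among all genes 42.0% were lower, 15.3% higher and 57.3% either. The members had a median log2 difference of -2.52, against -0.61 over all genes. Members at least 16-fold lower numbered 19, against 9 in IVM, where 4.17% and 1.24% of all genes were as low. Every CNP_IVM oocyte was below every GV oocyte in 62 members (28.0% of all genes) and above in 6 (12.9%). Those 6 were NDUFB1, NDUFB6, UQCRH, ATP5PF, ATP5PB and ATP5MC3. The pseudogene COX7ALP1 is again counted, among the 63 and the 62.

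**Figure D2:**
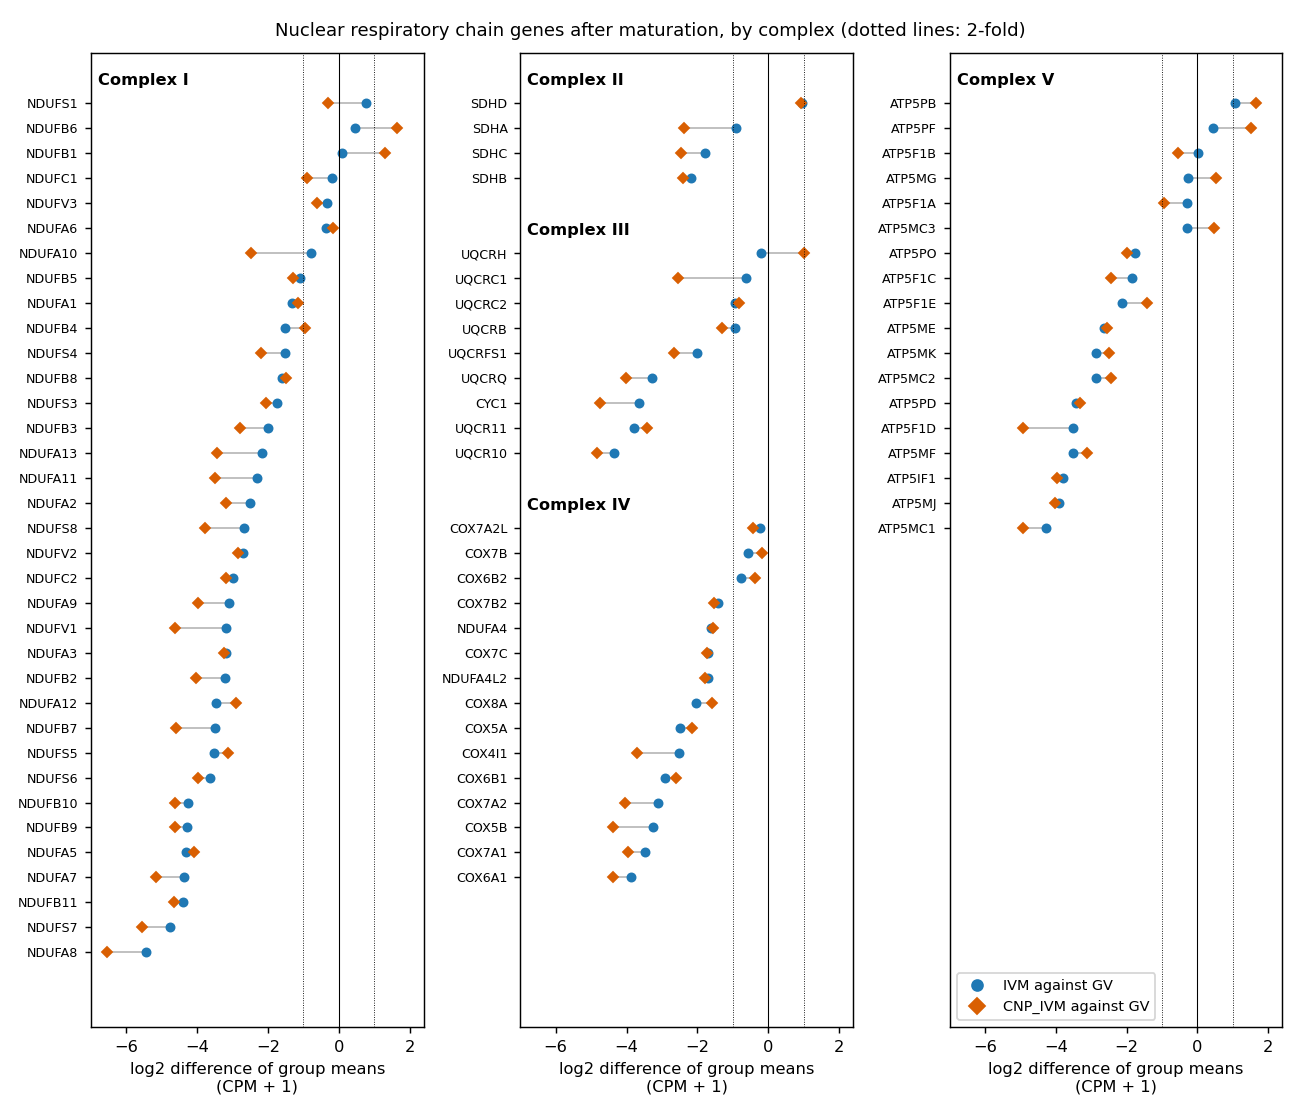
Log2 difference of group means (x axis, CPM + 1) from GV oocytes for genes assigned to a complex (y axis), as circles for IVM and diamonds for CNP_IVM, with dotted lines at 2-fold. NDUFA8 lies farthest to the left, at -5.46 and -6.54, while NDUFB6, NDUFB1, UQCRH, ATP5PF and ATP5PB lie to the right of the 2-fold line after CNP_IVM.

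Complex I is an L-shaped enzyme whose matrix arm oxidises NADH and whose membrane arm pumps protons. Its 7 nuclear core subunits, all in the matrix arm, carry the flavin and the iron-sulphur clusters or the quinone site. Of these, 6 were at least 2-fold lower in IVM and 6 in CNP_IVM than in GV oocytes, against 33.0% and 42.0% of all genes. NDUFS7, an iron-sulphur subunit next to the quinone site, had lowest, median and highest values of 188, 272 and 327 CPM in GV, 3.64, 7.36 and 19.8 CPM in IVM and 1.23, 3.73 and 11.04 CPM in CNP_IVM. No matured oocyte reached the lowest GV value, and the folds were 27.2 and 46.8. NDUFV1, which binds NADH and the flavin, was at 59.6, 82.8 and 121 CPM in GV, 0.892, 9.16 and 13.8 CPM in IVM and 0.812, 2.43 and 3.76 CPM in CNP_IVM. Summed over the oocytes of a group, NDUFV1 stood at 82.4 CPM (81.2, 83.6) in GV, 8.57 CPM (8.22, 8.93) in IVM and 2.36 CPM (2.18, 2.55) in CNP_IVM, with exact 95% Poisson intervals that cover the counting of reads only.

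Other core subunits were less far below GV. NDUFS8, another iron-sulphur subunit, averaged 359.7 ± 75.8 CPM in GV, 55.5 ± 27.4 CPM in IVM and 25.2 ± 6.54 CPM in CNP_IVM. For NDUFV2, the partner of NDUFV1, the means were 332 ± 59.3 CPM, 50.5 ± 13.2 CPM and 45.3 ± 5.78 CPM. NDUFS3, also of the matrix arm, averaged 147 ± 30.4 CPM, 43.3 ± 12.9 CPM and 34.9 ± 8.67 CPM. For NDUFS8, NDUFV2 and NDUFS3 no matured oocyte overlapped the GV range. NDUFS1, the largest iron-sulphur subunit, was the core subunit apart. It had lowest, median and highest values of 16.1, 76.3 and 100.2 CPM in GV, 96.4, 124 and 146 CPM in IVM and 36.5, 63.8 and 82.4 CPM in CNP_IVM. Its GV minimum was that of replicate 9, and the other 6 GV oocytes lay between 69.7 and 100.2 CPM. Every IVM oocyte was above every CNP_IVM oocyte for NDUFS1, with log2 differences from GV of 0.76 and -0.31. Without GV replicate 9 these differences were 0.59 and -0.49. With trimmed-mean factors the difference of NDUFS1 in IVM was just past 2-fold higher, at 1.03.

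Accessory subunits of complex I build a shell around the core. Of the 9 in the matrix arm 7 were at least 2-fold lower in each matured group, with NDUFA6 and NDUFV3 under 2-fold in both. Those 7 ran from -4.36 (NDUFA7) to -1.52 (NDUFS4) on the log2 scale in IVM and from -5.15 to -2.20 for the same genes in CNP_IVM. Of the 20 in the membrane arm 16 were at least 2-fold lower in each, and 2 were at least 2-fold higher after CNP_IVM. Of all genes 33.0% (IVM) and 42.0% (CNP_IVM) were lower, and 15.3% higher after CNP_IVM. NDUFB4 was past 2-fold in IVM, at -1.52, and not in CNP_IVM, at -0.95, while NDUFA10 was at -0.79 and -2.47. The GV mean of NDUFB4 was raised by GV replicate 9, at 1180 CPM against 367 to 574 CPM in the other 6 GV oocytes. The smallest of the lower differences were those of NDUFB5 in IVM, at -1.08, and NDUFA1 in CNP_IVM, at -1.16. NDUFC1 was under 2-fold in both groups, at -0.19 and -0.90. NDUFA8, a small twin-cysteine subunit on the intermembrane side, had the largest difference from GV of all members in both matured groups. Its values were 613, 946 and 1095 CPM in GV, 9.88, 18.1 and 33.2 CPM in IVM and 4.99, 7.59 and 13.7 CPM in CNP_IVM, 43.9-fold and 93.4-fold lower. Other deep differences, named after their values were seen, were those of NDUFB9 (471, 23.2 and 17.95 CPM), NDUFA7 (229.9, 10.3 and 5.48 CPM), NDUFB11 (148, 6.12 and 4.97 CPM) and NDUFB10 (91.04, 3.84 and 2.76 CPM), as GV, IVM and CNP_IVM means. In all 4 the matured oocytes lay wholly below the GV range. NDUFA13, which sits near the quinone site, was lower in both groups and further so after CNP_IVM, with means of 87.7 ± 19.9 CPM, 18.6 ± 6.02 CPM and 7.18 ± 2.78 CPM.

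NDUFB1 and NDUFB6 are membrane-arm subunits of the same distal part of the pump as NDUFB10 and NDUFB11, and were on the other side. NDUFB6 was at 143, 176 and 215 CPM in GV, 123, 266 and 314 CPM in IVM and 462, 579.6 and 713 CPM in CNP_IVM. Every CNP_IVM oocyte exceeded every GV and every IVM oocyte, 3.13-fold and 2.27-fold higher in the mean. NDUFB1 was at 119, 169 and 186 CPM, 86.9, 155 and 298 CPM and 228, 405 and 625 CPM, above all GV oocytes after CNP_IVM but overlapping the IVM range. Within 1 arm of 1 enzyme the log2 differences of CNP_IVM from GV thus ran from -6.54 for NDUFA8 to 1.65 for NDUFB6.

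Complex II, succinate dehydrogenase, joins the citric acid cycle to the chain and has no mitochondrially encoded subunit. SDHB, its iron-sulphur subunit, averaged 153 ± 29.1 CPM in GV, 32.99 ± 12.1 CPM in IVM and 27.8 ± 5.95 CPM in CNP_IVM. SDHC, a membrane anchor, averaged 131 ± 31.8 CPM, 37.1 ± 13.8 CPM and 22.8 ± 6.61 CPM. For both, all matured oocytes lay below all GV oocytes. SDHD, the other anchor, was at 0.0545, 25.9 and 31.3 CPM in GV, 26.7, 42.5 and 63.6 CPM in IVM and 31.2, 45.2 and 55.5 CPM in CNP_IVM, with log2 differences of 0.97 and 0.93, just under 2-fold higher. The GV minimum again belonged to replicate 9, without which the differences of SDHD were 0.75 and 0.71. They were past 2-fold with trimmed-mean (TMM) factors, at 1.25 and 1.42, with median-of-ratios size factors, at 1.14 and 1.30, and with quantile normalization, at 1.33 and 1.50. Without GV replicate 1, 2 or 4 they were also just past 2-fold, and in IVM so without GV replicate 3 or IVM replicate 8 or 9.

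SDHA, the flavoprotein that oxidises succinate, depended on 1 library. Its values were 21.96, 24.2 and 274 CPM in GV, 8.28, 26.8 and 76.4 CPM in IVM and 5.29, 9.12 and 24.3 CPM in CNP_IVM. GV replicate 9 supplied the 274 CPM, and the next highest GV oocyte had 48.7 CPM. With that library the log2 difference of SDHA in IVM was -0.90, and without it 0.24. Leaving out GV replicate 1, 2, 3, 4 or 6 or IVM replicate 8 or 10 put it past 2-fold lower, at -1.17 to -1.01. In CNP_IVM it was -2.37 with the library and -1.23 without. The sum of complex II in GV was likewise 369 ± 133 CPM with replicate 9 and 320.3 ± 33.1 CPM without. CNP_IVM oocytes summed to 84.2 to 121.7 CPM and IVM oocytes to 122.4 to 176 CPM, which do not overlap but nearly meet.

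Complex III moves electrons from ubiquinol to cytochrome c. Of its 9 nuclear subunits 5 were 2-fold or more below GV in IVM, with 4 under 2-fold. In CNP_IVM 7 were lower, 1 was higher and 1 under 2-fold. Of all genes 33.0% (IVM) and 42.0% (CNP_IVM) were lower, and 15.9% and 15.3% higher. CYC1, the heme-bearing cytochrome c1, was at 51.96, 72.7 and 128 CPM in GV, 0.892, 6.99 and 9.56 CPM in IVM and 0.532, 2.06 and 4.32 CPM in CNP_IVM. UQCRFS1, the Rieske iron-sulphur protein, averaged 49.4 ± 17.5 CPM, 11.4 ± 7.15 CPM and 7.01 ± 2.96 CPM. Both catalytic genes had no overlap between GV and matured oocytes. Among small accessory subunits, UQCR10 averaged 199 ± 31.3 CPM, 8.78 ± 3.24 CPM and 6.02 ± 2.18 CPM, UQCRQ 794 ± 87.04 CPM, 81.3 ± 22.8 CPM and 47.8 ± 17.6 CPM, and UQCR11 39.6 ± 13.7 CPM, 1.95 ± 1.25 CPM and 2.79 ± 2.22 CPM. All 3 lay wholly below GV in both matured groups, as did UQCRB, at smaller log2 differences of -0.95 and -1.29.

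The core proteins UQCRC1 and UQCRC2, which face the matrix, differed in pattern. UQCRC1 was at 24.6, 37.1 and 94.7 CPM in GV, 16.2, 31.5 and 44.4 CPM in IVM and 0.537, 8.95 and 15.2 CPM in CNP_IVM. Its IVM range overlapped that of GV, and every CNP_IVM oocyte lay below both groups, 3.78-fold under the IVM mean. UQCRC2 was at 17.6, 109 and 142 CPM, 33.5, 46.9 and 84.5 CPM and 41.03, 55.1 and 78.96 CPM. Its GV minimum was that of replicate 9, where the other 6 had 80.01 to 142 CPM. Its log2 difference in IVM was -0.95, and past 2-fold at -1.13 without that library and at -1.08 without IVM replicate 3. In CNP_IVM it was -0.81, and -0.99 without GV replicate 9. UQCRH, the hinge protein that helps cytochrome c dock, was at 306, 321 and 374 CPM in GV, 156, 287 and 383 CPM in IVM and 531, 618 and 941 CPM in CNP_IVM. Its CNP_IVM values lay above all others, 2.02-fold over GV. That fold stood at the threshold, and its log2 of 1.01 was 0.97 with quantile normalization and 0.95 with group medians. It was 1.00 without GV replicate 3 or 9, 0.99 without CNP_IVM replicate 3 and 0.91 without CNP_IVM replicate 2, all just under 2-fold.

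Complex IV, cytochrome c oxidase, has 3 mitochondrially encoded core subunits and a nuclear coat. Of the 14 coat genes that passed the filter, each matured group had 11 at 2-fold or more below GV and 0 at 2-fold or more above. Of all genes 33.0% (IVM) and 42.0% (CNP_IVM) were below, and 15.9% and 15.3% above. COX5B, a zinc-binding subunit, was at 788, 909 and 1112 CPM in GV, 58.5, 81.7 and 156 CPM in IVM and 33.2, 40.9 and 59.2 CPM in CNP_IVM. COX6A1 was at 737, 829.7 and 931 CPM, 25.9, 55.2 and 84.8 CPM and 24.7, 38.5 and 48.1 CPM. COX4I1, the ubiquitous form of the regulatory subunit 4, was at 303, 346 and 600.2 CPM, 37.4, 61.3 and 101 CPM and 21.6, 27.5 and 36.1 CPM, and every CNP_IVM oocyte was below every IVM oocyte. For all 3 genes the matured oocytes lay below the GV range. COX6B1 (337, 43.6 and 54.8 CPM), COX8A (267, 64.1 and 88.9 CPM) and NDUFA4 (326, 106 and 109.9 CPM) were lower in both groups by their means. COX5A and COX7C had log2 differences of -2.50 and -1.69 in IVM and -2.15 and -1.72 in CNP_IVM, with no overlap with GV. COX8A in CNP_IVM was just under 2-fold lower with TMM factors, at -0.99 against -1.58.

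Within complex IV the differences ran from -3.88 for COX6A1 to -0.23 for COX7A2L in IVM. The isoform COX6B2, best known from testis, stayed at 5.81 to 11.8 CPM in GV, 2.61 to 10.5 CPM in IVM and 3.302 to 10.9 CPM in CNP_IVM, beside far larger differences of COX6B1. COX7B, a small coat subunit, averaged 161 ± 28.9 CPM, 109 ± 41.6 CPM and 144 ± 41.5 CPM, under 2-fold apart. The COX7A genes differed among themselves. COX7A1, the heart and muscle form, averaged 179.95 ± 40.1 CPM, 15.2 ± 8.34 CPM and 10.7 ± 2.91 CPM, and COX7A2, the common form, 367 ± 61.7 CPM, 41.8 ± 18.7 CPM and 21.3 ± 2.56 CPM. COX7A2L, which links complexes III and IV into supercomplexes, averaged 573 ± 117 CPM, 488 ± 85.6 CPM and 428 ± 89.9 CPM. Of the reads of the 3 genes COX7A2L held 42.5 to 59.8% in GV, 81.7 to 93.7% in IVM and 91.5 to 94.4% in CNP_IVM.

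Complex V has a catalytic head (F1) in the matrix, and a rotor, stalk and membrane part (FO). Of 18 genes 12 were at least 2-fold lower in each matured group, 1 was higher in IVM and 2 in CNP_IVM. Of all genes 33.0% (IVM) and 42.0% (CNP_IVM) were lower, and 15.9% and 15.3% higher. The head subunits that form the catalytic ring were under 2-fold apart in IVM. ATP5F1A, the alpha subunit, averaged 409.8 ± 61.96 CPM, 336 ± 55.1 CPM and 214 ± 44.3 CPM. In CNP_IVM its log2 difference of -0.94 was just past 2-fold without GV replicate 9 or CNP_IVM replicate 6. ATP5F1B, the beta subunit that holds the active site, was at 82.5, 104 and 451 CPM, 57.1, 205 and 225 CPM and 73.3, 121 and 135 CPM, and the highest GV value was again that of replicate 9, where the other 6 reached at most 170.3 CPM. Its log2 difference in IVM was 0.03, and 0.54 without that library.

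The subunits of the turning shaft were lower. ATP5F1C, the gamma subunit at its core, differed from GV by -1.86 in IVM and -2.43 in CNP_IVM on the log2 scale, and ATP5F1E, the epsilon subunit, by -2.13 and -1.43. The GV mean of ATP5F1E was raised by GV replicate 9, at 1045 CPM against 305 to 522 CPM in the other 6. ATP5F1D, the delta subunit, was at 139.6, 167 and 228 CPM in GV, 6.86, 11.8 and 23.03 CPM in IVM and 1.63, 4.35 and 10.5 CPM in CNP_IVM, 11.3-fold and 30.7-fold lower. ATP5IF1, the inhibitor that blocks the head when the synthase would run in reverse, was at 759, 932 and 1026 CPM, 43.8, 61.6 and 98.6 CPM and 48.3, 55.2 and 64.5 CPM. Both were wholly below GV in both matured groups. ATP5MJ, a small membrane subunit, averaged 164 ± 18.4 CPM, 9.99 ± 3.83 CPM and 9.098 ± 3.77 CPM, while ATP5MG, another, averaged 135 ± 24.8 CPM, 112 ± 31.1 CPM and 193 ± 47.6 CPM. The membrane subunits ATP5ME, ATP5MF and ATP5MK had log2 differences of -2.65, -3.52 and -2.88 in IVM and -2.56, -3.13 and -2.50 in CNP_IVM.

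The peripheral stalk, which keeps the head from turning with the shaft, held 4 members that went separate ways. ATP5PB, its subunit b, was the 1 member at least 2-fold higher in IVM, with values of 108, 136 and 201 CPM in GV, 159, 307 and 374 CPM in IVM and 295, 480.5 and 507 CPM in CNP_IVM. The highest GV value, that of replicate 2, reached into the IVM range, and every CNP_IVM oocyte lay above GV. ATP5PF, the coupling factor F6, was at 350.4, 406 and 487 CPM, 336, 532 and 792 CPM and 976, 1206 and 1465 CPM, so every CNP_IVM oocyte exceeded all others. The other 2 stalk genes were lower, and are named after their values were seen. ATP5PD averaged 474 ± 64.7 CPM, 42.8 ± 19.7 CPM and 46.3 ± 13.1 CPM, and ATP5PO 628 ± 72.5 CPM, 184 ± 32.5 CPM and 158 ± 30.3 CPM.

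Subunit c, which forms the rotor ring, is made from 3 genes whose products differ in the import sequence that is removed and give the same mature protein. In GV oocytes ATP5MC1 gave most of their reads, and in all matured oocytes ATP5MC3 did. ATP5MC1 was at 643, 672 and 859 CPM in GV, 16.9, 37.8 and 49.9 CPM in IVM and 16.1, 20.5 and 32.8 CPM in CNP_IVM, 19.3-fold and 30.2-fold lower. ATP5MC2 averaged 151 ± 27.1 CPM, 19.7 ± 5.56 CPM and 26.9 ± 8.55 CPM, and no matured oocyte reached its GV range. ATP5MC3 was at 218, 293 and 335 CPM, 164, 236 and 302 CPM and 354, 403 and 445 CPM, overlapping GV in IVM and above both other groups in CNP_IVM.

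The share of ATP5MC3 in the reads of the 3 genes was 25.4 ± 2.302% in GV, 81.2 ± 2.91% in IVM and 89.2 ± 1.43% in CNP_IVM. Its ranges of 21.8 to 29.01%, 76.2 to 84.6% and 86.8 to 90.4% did not overlap. A share of reads within 1 oocyte does not depend on the library total. The summed level of the 3 genes was 1147 ± 131 CPM in GV, 293 ± 46.5 CPM in IVM and 452 ± 39.7 CPM in CNP_IVM, and every CNP_IVM oocyte was above every IVM oocyte.

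**Figure D3:**
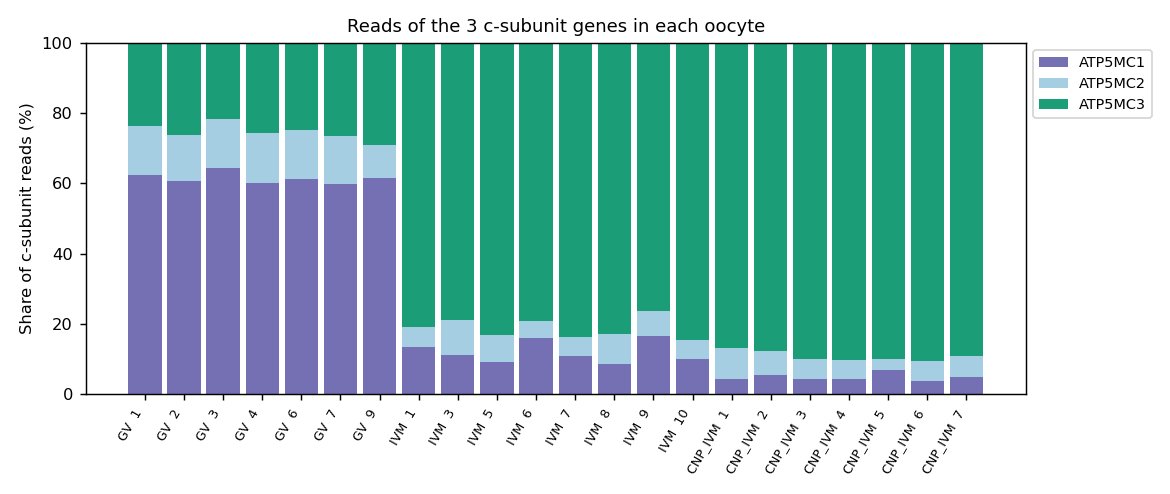
Share of the reads of the 3 c-subunit genes (y axis, %) in each oocyte (x axis), stacked as ATP5MC1, ATP5MC2 and ATP5MC3. ATP5MC1 is the largest part in all 7 GV oocytes and ATP5MC3 in all 8 IVM and all 7 CNP_IVM oocytes.

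NDUFB1, NDUFB6, UQCRH, ATP5PF and ATP5PB, the 5 members at least 2-fold higher in CNP_IVM than in GV oocytes, were chosen by that difference, and their joint values are a description. They sit in complexes I, III and V. Their summed level was 1087 to 1417 CPM in GV, 861 to 2089.7 CPM in IVM and 2916 to 3947 CPM in CNP_IVM. They held 5.59 ± 0.421% of the reads of all 83 genes in GV, 23.03 ± 4.83% in IVM and 40.6 ± 2.21% in CNP_IVM. The other 78 genes summed to 20699.8 ± 1818 CPM, 5185 ± 812 CPM and 4758 ± 482 CPM.

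**Figure D4:**
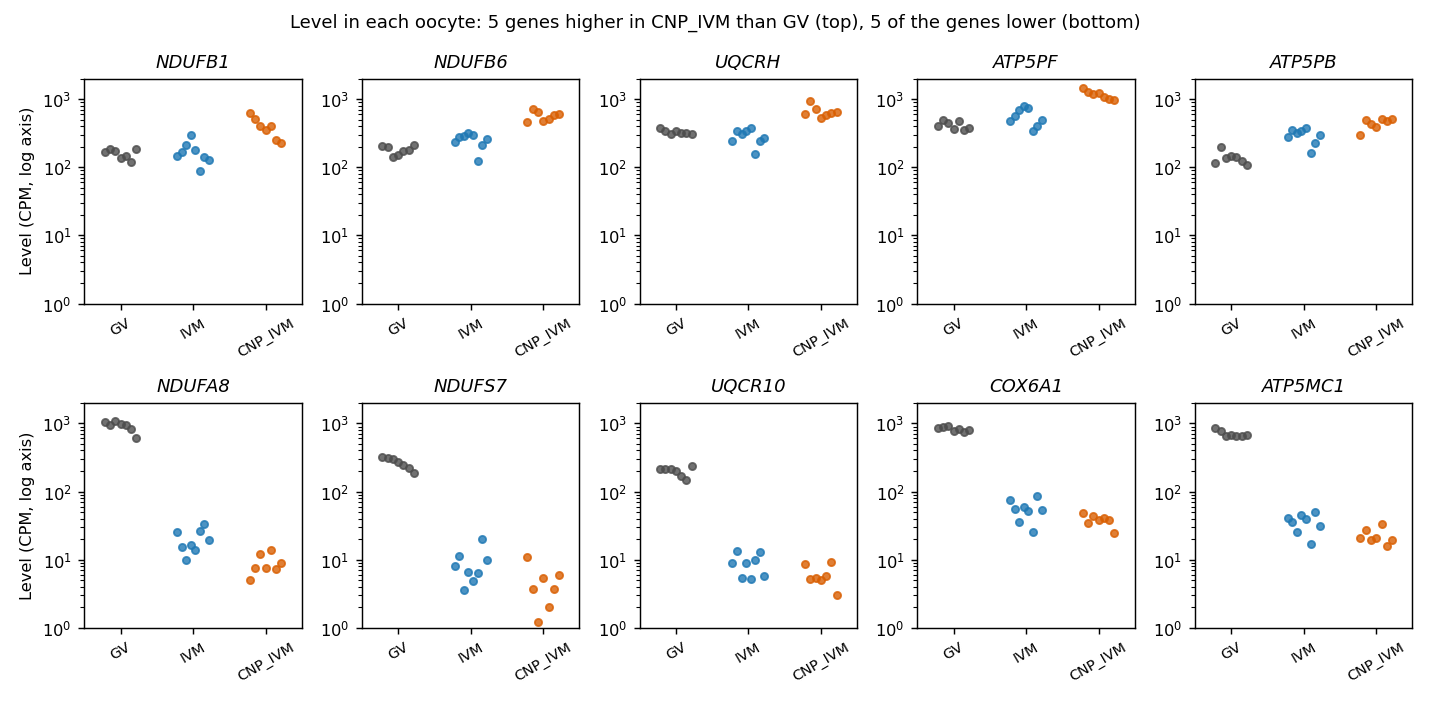
Level in each oocyte (y axis, CPM on a log axis) by group (x axis), for the 5 genes at least 2-fold higher in CNP_IVM than GV (top row) and 5 of the genes lower (bottom row). In the bottom row every matured oocyte lies below every GV oocyte, while in the top row every CNP_IVM oocyte lies above every GV oocyte.

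The third comparison sets both maturation systems against each other. Of 82 members 4 were at least 2-fold higher in CNP_IVM than in IVM oocytes, 15 at least 2-fold lower and 63 under 2-fold. Over all genes 1.86% were higher, 14.8% lower and 16.7% either. The median log2 difference was -0.25 for the members and -0.28 for all genes, and with quantile normalization that of the members was 0.041. The 4 higher members were NDUFB1, NDUFB6, UQCRH and ATP5PF, and all 4 were past 2-fold under each scaling and pseudocount. ATP5PF was just under 2-fold without IVM replicate 8, at 0.98 against 1.06. The count of lower members was less firm: 6 with TMM factors and with median-of-ratios size factors, 3 with quantile normalization, 9 with a pseudocount of 5 CPM and 9 without IVM replicate 9. The count over all genes fell as well, from 1754 of 11852 by library totals to 993 of 11804 with TMM factors. It was 976 of 11794 with size factors, 704 of 11820 with quantile normalization and 743 of 11852 with a pseudocount of 5 CPM. With TMM factors 6 members were higher, so the split was 6 to 6, where over all genes it was 457 higher to 993 lower.

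Groups that did not overlap were few here. Every CNP_IVM oocyte lay above every IVM oocyte in 4 members (1.38% of all genes), NDUFB6, UQCRH, ATP5PF and ATP5MC3. It lay below in 4 (2.6%), NDUFS1, NDUFA10, UQCRC1 and COX4I1. NDUFA10, an accessory subunit of the membrane arm, was at 5.205, 92.99 and 124 CPM in GV, 32.3, 51.7 and 67.7 CPM in IVM and 7.65, 14.8 and 23.4 CPM in CNP_IVM, 3.21-fold lower after CNP_IVM than after IVM. Its GV minimum was that of replicate 9, where the other 6 had 88.5 to 124 CPM. Among core subunits of complex I, NDUFV1 was at least 2-fold lower in CNP_IVM than IVM, at -1.45, and was also past 2-fold with TMM factors. It was under 2-fold with quantile normalization, at -0.89, and with a pseudocount of 5 CPM, at -0.84. NDUFS8, at -1.11, was under 2-fold with TMM factors and, at -0.93, without IVM replicate 9. NDUFS1, at -1.08, was under 2-fold with TMM factors and without CNP_IVM replicate 1 or 2. Of the 9 accessory matrix-arm genes 0 were 2-fold apart, where 16.7% of all genes were, and so few genes allow no contrast with the core subunits. In the stalk and FO part of complex V the median log2 difference was 0.39, and in the head of complex V it was -0.57.

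Over members at 10 CPM or more in a group, the median coefficient of variation between oocytes was 19.1% in GV, 30.8% in IVM and 24.4% in CNP_IVM, against 32.0%, 31.9% and 25.6% for all genes at that level. Among the 8 IVM oocytes replicate 8 had the lowest value of 39 of the 83 members and replicate 9 the highest of 42. Their summed levels were 4749 and 7396 CPM. IVM replicate 8 also had the lowest sum of the 5 higher genes among IVM oocytes, 861 CPM, and held 10752 genes at 1 CPM or more, where replicate 9 held 10653. IVM replicates 5, 6 and 7, with 9460, 9817 and 9431 genes at that level, summed to 1811, 2089.7 and 1960 CPM over the 5 genes, above the other IVM oocytes and below every CNP_IVM oocyte.

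GV replicate 9 was not uniformly low or high. It lay above the other 6 GV oocytes in 29 members, below them in 23 and among them in 31, while among all genes past the filter 33.3% were above and 46.4% below. Its farthest departures were in SDHD, at 0.0545 CPM against 14.8 to 31.3 CPM, and NDUFA10, SDHA, UQCRC2, NDUFS1 and ATP5F1B. Without it 61 of 82 members were at least 2-fold lower in IVM and 64 in CNP_IVM than in GV oocytes, and 4 were higher in CNP_IVM. Over all 11783 genes past the filter in that setting, 3735 and 4762 were lower, and 1763 were higher in CNP_IVM.

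Assembly factors build the complexes without staying in them, and their list gives the pathway around the members. Of 58 such genes on the list 57 had a row and 55 passed the filter. In IVM against GV 29 of the 57 were at least 2-fold lower, 2 higher and 26 neither, which is 50.9% lower and 3.51% higher, against 33.0% and 15.9% of all genes. Their median was -1.03. In CNP_IVM against GV 30 were lower, 7 higher and 20 neither, which is 52.6% lower and 12.3% higher against 42.0% and 15.3%, and the median was -1.26. The medians of the subunit genes were -2.18 and -2.52, and the difference between both kinds of gene was not tested. PET100, for complex IV, averaged 149.6 ± 23.6 CPM in GV, 2.31 ± 1.48 CPM in IVM and 1.97 ± 0.9002 CPM in CNP_IVM. UQCC2, for complex III, averaged 460.2 ± 109 CPM, 16.1 ± 6.87 CPM and 19.9 ± 3.97 CPM, and NDUFAF8, for complex I, 165 ± 49.1 CPM, 5.94 ± 2.91 CPM and 4.41 ± 0.482 CPM. CMC1, of complex IV assembly, averaged 202 ± 26.9 CPM, 254 ± 91.2 CPM and 556 ± 67.1 CPM, and NDUFAF4, for complex I, 93.6 ± 19.2 CPM, 157 ± 57.6 CPM and 256 ± 11.8 CPM. For both, every CNP_IVM oocyte was above every GV oocyte.

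Among 17 genes of mobile electron carriers and ubiquinone synthesis 7 were at least 2-fold lower in each matured group, and 1 was higher in IVM and 2 in CNP_IVM. The share lower, 41.2%, stood beside 33.0% and 42.0% of all genes, near the background in CNP_IVM. COQ4, of ubiquinone synthesis, averaged 52.2 ± 13.4 CPM, 7.09 ± 4.49 CPM and 2.73 ± 1.17 CPM. COQ10B, which binds ubiquinone, averaged 33.96 ± 12.7 CPM, 67.9 ± 24.7 CPM and 84.7 ± 21.6 CPM, with every CNP_IVM oocyte above every GV oocyte. Of 12 transcription regulators linked to respiratory genes 4 were higher, 4 lower and 4 under 2-fold in IVM, and 5 higher, 5 lower and 2 under 2-fold in CNP_IVM. The filter passed 11 of these 12 genes. The shares lower, 33.3% and 41.7%, were near those of all genes (33.0% and 42.0%), and the shares higher, also 33.3% and 41.7%, stood beside 15.9% and 15.3%. PPARGC1A, a coactivator of mitochondrial genes, averaged 28.9 ± 7.73 CPM, 93.3 ± 19.6 CPM and 88.4 ± 34.5 CPM. CREB1, a cyclic AMP response factor, averaged 29.1 ± 4.396 CPM, 6.58 ± 2.78 CPM and 5.77 ± 1.27 CPM, and all matured oocytes were below the GV range.

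The mitochondrial genome supplies the other subunits of complexes I, III, IV and V. In IVM 0 of its 13 genes were 2-fold from GV, where 48.9% of all genes were. In CNP_IVM all 13 were at least 2-fold higher, against 15.3% of all genes. Their median log2 differences were 0.41 and 2.56, against -0.28 and -0.61 over all genes. The 7 mitochondrial genes of complex I summed to 452 to 870.5 CPM in GV, 487 to 1825 CPM in IVM and 2794 to 6948 CPM in CNP_IVM, while the 36 nuclear ones summed to 6723 to 8646, 1524 to 2812 and 2115 to 2861 CPM. For complex IV the 3 mitochondrial genes summed to 904 to 3096, 1084 to 4647 and 2762 to 14750.3 CPM, and the 15 nuclear ones to 4368 to 5949.97, 837 to 1535 and 966 to 1491 CPM. The ratio of all 13 mitochondrial to all 83 nuclear genes, in reads, was 0.108 to 0.202 in GV, 0.302 to 1.48 in IVM and 0.919 to 3.305 in CNP_IVM. Every IVM oocyte had a higher ratio than every GV oocyte, and CNP_IVM overlapped IVM through IVM replicate 3, at 1.48. With the 13 genes left out of the library totals 60 and 63 of 82 members were at least 2-fold lower than GV in IVM and CNP_IVM, as with the full totals.

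**Figure D5:**
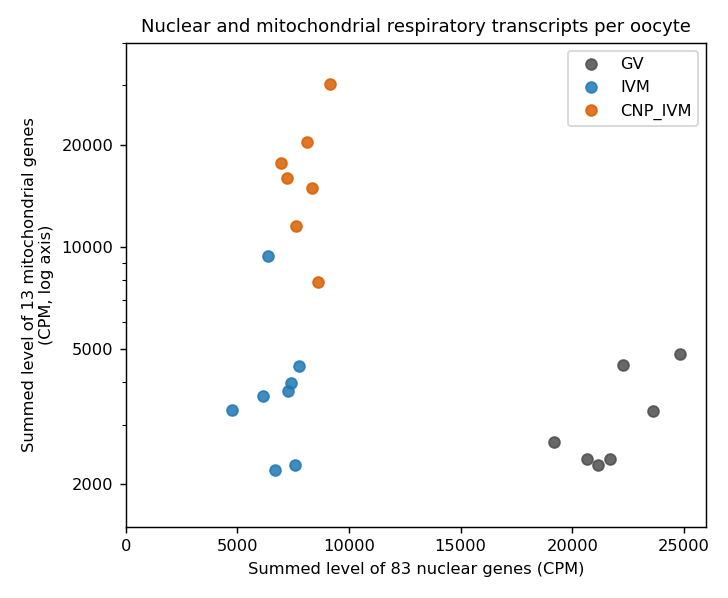
Summed level of the 13 mitochondrial genes (y axis, CPM on a log axis) against that of the 83 nuclear respiratory genes (x axis, CPM), with 1 point per oocyte. GV oocytes lie at the right, between 19181 and 24820 CPM, and CNP_IVM oocytes at the upper left, between 7908 and 30207 CPM of mitochondrial transcripts.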

How the data were processed

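Messenger RNA of single oocytes was read after SMART-Seq v4 amplification and Nextera XT, per the labels' protocols, with 1 library per oocyte. Tools listed in the submitters' processing notes are HISAT2 2.2.1, Trim Galore 0.6.7, featureCounts 2.0.1, edgeR and FastQC, without roles. They list the mouse build GRCm39, while the gene names are cattle symbols; all 83 members are current symbols in RefSeq ARS-UCD2.0. The authors deposited 1 table, named for TPM, whose values are CPM: in each library 100% are whole multiples of 1 step (tolerance 0.01 read), without regard to gene length. Recovered reads gave library totals, and 97.1 to 97.6% of reads lay in listed genes. Whether counting used strand or split near-identical copies is not given in the sources used here, so members with processed copies are uncertain in level.

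Columns were matched through the column names in the labels and grouped by title. The closest pair of a group differed with a chi-square per degree of freedom of 38.0, so no library was counted as a copy. Since the labels name no donor, no test between groups was run and no p-value is given, count tests on recovered reads included. Genes at 1 CPM in at least 6 libraries were kept (11852). Differences are log2 ratios of group means with a pseudocount of 1 CPM, called at 2-fold. Named members were, per complex and comparison, the 2 highest and 2 lowest among those at 10 CPM or more in either group, with the core subunits and paralog sets whatever their values; other lists gave up to 2 members per direction. Members and lists were chosen with earlier results of these data known. Steps were tested on simulated reads. Alternatives were TMM factors (edgeR 4.0.16), size factors (DESeq2 1.42.0), quantile normalization, totals without the mitochondrial genome, pseudocounts of 0.1 and 5 CPM, no filter, group medians and leaving out each oocyte. Python 3.11.15 and R 4.3.3 were used. No sequence of a member was used here. Values of 1 member are not reported here, and it is in the counts and sums.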

Additional observations from a re-analysis of the deposited data

Results flagged for a closer look

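A value was singled out where 1 oocyte's gap to the next, as a share of its group's range, passed Dixon's limit. Of 234 groups looked at 29 did so, and chance gives about 1 in 20 for a single group. Genes, their sums and their shares overlap, so the tally is a description and not a test. GV replicate 9 accounted for 9. It was high for SDHA (0.894 of the range, 274 CPM against at most 48.7 CPM), COX8A (0.779), COX6B1 (0.776), COX4I1 (0.765), ATP5F1B (0.762) and the nuclear sum of complex II (0.775). It was low for NDUFA10 (0.699), NDUFS1 (0.637) and the ATP5MC2 share of c-subunit reads (0.709).

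IVM replicate 3 accounted for 7. It was high for the mitochondrial sums of complexes I (0.571), III (0.722), IV (0.692) and V (0.710), for their total (0.688, 9414 CPM against at most 4456 CPM), for the ratio of mitochondrial to nuclear reads (0.666) and for ATP5MC2 (0.536). IVM replicate 9 was high for COX7A1 (0.583) and its share of COX7A reads (0.588) and for UQCRFS1 (0.552). It was also flagged for NDUFA4L2 (1.00 of the range), at only 0.715 CPM, where the other IVM oocytes were at 0. IVM replicate 8 was low for the nuclear sum of complex V (0.601) and high for the complex II share of member reads (0.594), and IVM replicate 10 was high for COX6B2 (0.611).

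GV replicate 2 was high for ATP5PB (0.592) and UQCR11 (0.596). CNP_IVM replicate 2 was high for the nuclear sum of complex III (0.611), and CNP_IVM replicate 5 for COX7B (0.580) and the complex IV share of member reads (0.661). CNP_IVM replicate 2 was also flagged for NDUFA4L2 (0.749), but at only 0.209 CPM, against at most 0.0525 CPM in the others.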

How the results depend on the processing

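No paired analysis was possible because no result comes from a test, and the replicate numbers only name oocytes. No difference past 2-fold of a named member changed sign under any alternative. Counts of members at least 2-fold lower than GV stayed within 57 to 64 in both comparisons. With TMM factors 3 members were higher in IVM against GV and 8 for CNP_IVM against GV, and 6 were lower for CNP_IVM against IVM. The same calls over all genes numbered 2638, 3014 and 993 of 11804, where library totals gave 1880, 1818 and 1754 of 11852. The median for CNP_IVM against GV was -1.98, and the log2 ratios of summed levels were -1.40, -0.90 and 0.50 in the 3 comparisons, where library totals gave -1.70, -1.45 and 0.25. With size factors of DESeq2 2 were higher in IVM against GV and 6 lower in CNP_IVM against IVM, the median for CNP_IVM against GV was -2.08, and the summed ratio was -1.03 there and 0.49 for CNP_IVM against IVM. Quantile normalization gave 2 higher in IVM against GV, 3 lower in CNP_IVM against IVM, and medians of -2.05 for CNP_IVM against GV and 0.041 against IVM, so the last has no firm direction. A pseudocount of 5 CPM gave a median of -2.29 in CNP_IVM against GV and 9 lower in CNP_IVM against IVM. Leaving out each oocyte gave 1 to 2 higher in IVM against GV, with 2 without GV replicate 1, 2, 3 or 4 or IVM replicate 8 or 9. It gave 9 to 16 lower in CNP_IVM against IVM, with 9 without IVM replicate 9. Of all values for counts, medians and sums, 78 of 96 under other settings and 257 of 264 without 1 oocyte lay within 1 SD between oocytes or, for counts, 1.5 times. The cause of these shifts was not tested. With 20159662 reads or more in each library, members near 1 CPM have folds that depend on the pseudocount: NDUFA4L2 in IVM against GV was at -1.71, and at -0.57 with 5 CPM added.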

Other observations

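ETFA and ETFB were named as the highest and lowest, in IVM against GV, of the 17 genes of electron carriers and ubiquinone synthesis. Their lying on opposite sides therefore follows from that choice. ETFA and ETFB encode the 2 subunits of the electron transfer flavoprotein, which feeds electrons from fatty acid oxidation into the chain. ETFA averaged 219.6 ± 77.5 CPM in GV, 449 ± 136 CPM in IVM and 532 ± 94.5 CPM in CNP_IVM, and ETFB 117 ± 38.7 CPM, 10.6 ± 4.35 CPM and 7.62 ± 1.703 CPM. Every matured oocyte was below every GV oocyte for ETFB, and every CNP_IVM oocyte was above every GV oocyte for ETFA.

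CYCS, cytochrome c itself, averaged 138 ± 40.01 CPM in GV, 134 ± 47.5 CPM in IVM and 245 ± 34.4 CPM in CNP_IVM, and every CNP_IVM oocyte was above every GV oocyte. Its docking partners differed from each other, since UQCRH was higher and CYC1 lower in CNP_IVM than in GV oocytes. The regulators YY1 and NRF1, which bind promoters of respiratory genes, were likewise the highest and lowest of their list in CNP_IVM against IVM. Their means were 14.3, 17.999 and 38.001 CPM for YY1 and 50.6, 31.3 and 15.6 CPM for NRF1.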
